A study of Mus musculus with 8 samples.

Results

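Fragments of the arginine transfer RNA Arg-CCG-1, alone or sharing their sequence with Arg-TCG-2 and in part with Arg-CCG-2, were described in 8 small RNA libraries of mouse islet cells. Transfer RNA-derived fragments (tRFs) are short RNAs cut from transfer RNAs. The authors' deposited tables list 112 tRFs as differing between cytokine-treated and control cells, and 23 of these have an Arg-CCG-1 parent. The 23 were selected on that listing, which held tRFs with a false discovery rate (FDR) under 0.05 in the authors' edgeR comparison of the same libraries. Their FDR values imply that 31661 tRFs were tested, of which 0.354% were listed, 0.262% as lower and 0.0916% as higher with cytokines. Of the 23, 21 were listed as lower and 2 as higher. The differences between groups given here are therefore descriptions, with no test, and the listing alone is no support for them. The members nearest the threshold were positions 39 to 76, with an FDR of 0.0437 in the authors' deposited tables, and positions 61 to 76 (0.0383). In the authors' DESeq comparison of the same libraries 22 of the 23 had an adjusted p under 0.05, and positions 61 to 76 had 0.0683. That count was not taken over all 112 listed tRFs, so nothing particular to the members can be read from it. The tRFs outside the listing were not analysed here.

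Both groups came from dissociated islet cells of 12-week-old C57BL/6NRj mice, described by the labels as mainly beta cells and alpha cells and cultured for 24 h after dissociation. In 4 libraries the cells then received a mix of TNF-α, IL-1β and IFN-γ, at 10, 0.1 and 30 ng/mL, for 24 h, and the other 4 are labelled only as controls. The comparison asks how inflammatory cytokines alter the tRF content of islet cells, as in the early phase of type 1 diabetes. The labels do not tie libraries to animals or cultures, so the spread between libraries may be technical. The tables hold tRFs only, so cell type markers could not be examined.

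Transfer RNAs carry amino acids to the ribosome and pair with codons through the anticodon. Arg-CCG and Arg-TCG deliver arginine and differ in the first base of the anticodon. Every mature tRNA ends in the bases CCA, which an enzyme adds after transcription and to which the amino acid is attached. Fragments that keep the CCA tail come from mature tRNA 3′ ends. Cuts at the anticodon give long 3′ fragments (named 3-tRH in the tables). Cuts elsewhere give other 3′ fragments (3-tRF), and fragments lacking both tRNA ends are internal (i-tRF). In beta cells, cytokines of this kind are known to impair insulin secretion and to promote cell death.

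Each parent name stands for 1 gene here. The tables place Arg-CCG-1 on chromosome 13, Arg-TCG-2 on chromosome 11 and Arg-CCG-2 on chromosome 17. On GRCm38.p6, the build named in the submitters' processing notes, RefSeq has 1 tRNA-Arg gene with the matching anticodon on each of these chromosomes. These are n-TRccg3 (chr13:21215458-21215530), n-TRtcg4 (chr11:115413779-115413851) and n-TRccg2 (chr17:23550263-23550335). The match rests on chromosome and anticodon only. The first lies within the span of Gm32420, a RefSeq long non-coding RNA gene, and the other two overlap no other RefSeq gene; none of the 3 overlaps a GENCODE M21 gene. Each RefSeq gene is 73 bases long, so the added CCA falls on positions 74 to 76, although the tables give a tRNA length of 77.

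The 3 parents are shown over positions 28 to 76, the stretch that the fragments cover, because their few differences decide which parent a fragment can be assigned to. The sequences are written 5′ to 3′ as DNA letters, as in the tables, and capitals mark the bases at which the parents differ.
Arg-CCG-1: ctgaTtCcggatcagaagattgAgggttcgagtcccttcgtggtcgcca
Arg-TCG-2: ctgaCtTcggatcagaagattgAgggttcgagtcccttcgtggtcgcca
Arg-CCG-2: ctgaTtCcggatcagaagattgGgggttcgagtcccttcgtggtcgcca

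Counted from the tRNA's 5′ end, Arg-TCG-2 differs from Arg-CCG-1 by T32C and C34T, and Arg-CCG-2 differs from Arg-CCG-1 by A50G. The anticodon spans positions 34 to 36. A fragment that holds positions 34 and 50 is therefore assigned to Arg-CCG-1 alone, and 7 members are of this kind. Another 10 begin at positions 35 to 50 and are shared with Arg-TCG-2. The remaining 6 begin at positions 52 to 61, past the last difference, and are shared by all 3 parents. Reads of shared fragments cannot be divided between the genes.

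Of the 23, 20 ended in the full CCA tail at position 76. They had 20 different starts among the 34 positions from 28 to 61 and lengths of 16 to 49 bases. The tables class 18 of them as 3-tRF and the 2 that begin at positions 34 and 35 as 3-tRH. The other 3 members are internal: 2 stopped at position 73, the base before the tail, and 1 stopped at position 54. The fragments that carry the contrast are shown next, first those ending at 73 (capital on the last base), then their neighbours with the tail (capitals on the tail), and last the internal fragment ending at 54 (capitals on the anticodon).
Positions 42 to 73: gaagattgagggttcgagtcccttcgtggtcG
Positions 39 to 73: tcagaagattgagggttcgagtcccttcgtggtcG
Positions 39 to 76: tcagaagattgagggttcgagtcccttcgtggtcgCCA
Positions 43 to 76: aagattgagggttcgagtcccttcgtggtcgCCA
Positions 35 to 76: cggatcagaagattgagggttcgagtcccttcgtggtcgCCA
Positions 34 to 76: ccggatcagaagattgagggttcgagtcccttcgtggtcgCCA
Positions 34 to 54: CCGgatcagaagattgagggt

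**Figure D1:**
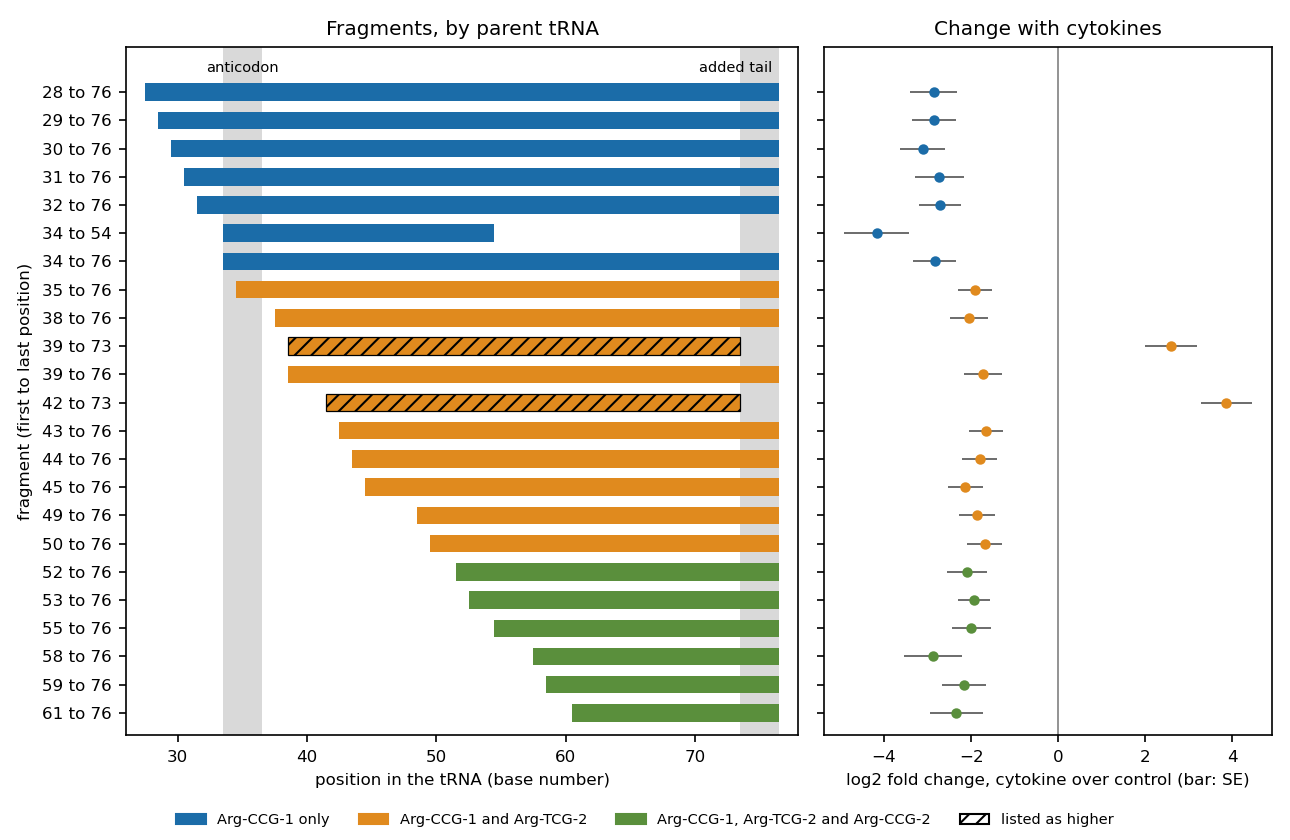
Left, the 23 fragments drawn by first and last position in the tRNA and coloured by parents, with grey bands on the anticodon and the added tail. Right, log2 fold change of cytokine over control (edgeR, bar: SE). The 20 fragments reaching position 76 lay between -3.12 and -1.66, and the hatched fragments ending at 73 lay at 2.58 and 3.86. With TMM factors over the listed tRFs the 20 ran from -1.34 to 0.092, with 3 above 0. With DESeq2 factors over the listed tRFs they ran from -1.13 to 0.32, with 8 above 0.

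Read counts were scaled to a common library size (CPM) with effective library sizes recovered from the authors' values, which ran from 367454 to 939108 reads. The members took 6573 reads in the controls and 1836 with cytokines. A level of 3 reads stands for 3.19 to 8.16 CPM, depending on the library, and such floors and the intervals below cover counting error only. The ranges of both groups did not overlap for 23 of the 23 members, against 98.2% of all 112 listed tRFs, from which nothing about the members can be read. The fragments listed as lower had a median log2 fold change of -2.13, against -2.60 over all 83 tRFs listed as lower.

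Fragments assigned to Arg-CCG-1 alone and ending in the tail began at positions 28 to 34, upstream of or at the first anticodon base. There were 6, and their summed level was 362, 293, 551 and 777 CPM in control replicates 1 to 4 and 70.8, 60.2, 68.4 and 70.3 CPM in cytokine replicates 1 to 4. The sum was thus lower in every cytokine library than in any control, 496 ± 217 against 67.4 ± 4.89 CPM (SD, n = 4 per group), a 7.35-fold difference. Single log2 fold changes lay close together, from -3.12 ± 0.52 (SE) for positions 30 to 76 to -2.71 ± 0.48 (SE) for positions 32 to 76. These 6 values were nearer 0 under other scalings, from -1.34 to -0.90 with TMM factors over the listed tRFs and from -1.13 to -0.69 with DESeq2 factors.

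The most abundant of these 6 covered positions 29 to 76. It stood at 76.5, 59.4, 153 and 171 CPM in the controls and at 16.3, 10.8, 28.1 and 8.52 CPM with cytokines. Control replicates 3 and 4 were the high ones. The lowest control, 59.4 CPM, was above the highest cytokine library, 28.1 CPM, but the fragment was listed for this contrast, so nothing can be read from that gap. Positions 34 to 76, the 3-tRH that begins with the anticodon itself, stood at 57.0, 72.0, 83.3 and 162 CPM in the controls and at 19.05, 8.61, 7.01 and 17.04 CPM with cytokines. Its log2 fold change was -2.84 ± 0.49 (SE). Positions 32 to 76 stood at 73.5, 53.1, 67.2 and 142 CPM in the controls and at 5.44, 15.1, 12.3 and 16.0 CPM with cytokines. For this fragment too, control replicate 4 was the highest library. Positions 28 to 76 stood at 77.8 ± 53.8 CPM in controls and at 10.4 ± 0.589 CPM with cytokines (SD, n = 4 per group). This was the smallest relative spread between cytokine libraries of any member. It rested on only 4, 5, 6 and 9 reads in cytokine replicates 1 to 4, so it cannot be read as a tightly held level.

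The sequence common to Arg-CCG-1 and Arg-TCG-2 gave the most abundant members. Its 8 fragments ending in the tail summed to 1330, 1326, 2297 and 2032 CPM in control replicates 1 to 4 and to 593, 366, 473 and 480.2 CPM in cytokine replicates 1 to 4. That is 1746 ± 495 against 478 ± 92.9 CPM (SD, n = 4 per group), 3.65-fold lower with cytokines. Their log2 fold changes ran from -2.13 ± 0.39 (SE) for positions 45 to 76 to -1.66 ± 0.40 (SE) for positions 43 to 76. This direction was not kept under every scaling: with TMM factors over the listed tRFs positions 39, 43 and 50 to 76 had fold changes above 0, and with DESeq2 size factors over them all but positions 45 to 76 did.

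The highest mean in the controls was that of the 3-tRH of positions 35 to 76, which lacks only the first anticodon base. Its level was 293, 317, 271 and 518 CPM in the controls and 84.4, 73.2, 70.1 and 139 CPM with cytokines, with replicate 4 the highest in each group. Its log2 fold change was -1.92 ± 0.39 (SE). Positions 50 to 76 stood at 207, 192, 398 and 271 CPM in the controls and at 112, 55.9, 89.4 and 73.5 CPM with cytokines. Positions 49 to 76 stood at 141, 164, 446 and 238 CPM in the controls and at 76.2, 55.9, 77.1 and 59.6 CPM with cytokines. In these 2 shorter fragments control replicate 3 was the highest library, not replicate 4. Their log2 fold changes were -1.69 ± 0.39 and -1.87 ± 0.41 (SE).

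Short 3′ fragments shared by all 3 parents began inside the T arm, the stem and loop next to the acceptor stem. In many tRNAs the bases at positions 54 and 55 of this loop are modified uridines and the adenine at position 58 is methylated. The controls held 462 ± 73.2 CPM of the 6 fragments together and the cytokine libraries 109 ± 17.01 CPM (SD, n = 4 per group), 4.24-fold less. The largest part of this was positions 53 to 76, at 232 ± 39.2 and 60.4 ± 5.11 CPM (SD, n = 4 per group). Their log2 fold change of -1.94 ± 0.37 (SE) was 0.023 with DESeq2 size factors over the listed tRFs. A fragment starting 1 base earlier, positions 52 to 76, stood at 69.0 ± 21.8 and 16.2 ± 4.72 CPM (SD, n = 4 per group). In every library the start at 53 had more reads than the start at 52, by 2.58-fold to 5.40-fold. Positions 55 to 76 stood at 74.4 ± 15.5 and 18.4 ± 6.89 CPM (SD, n = 4 per group). Positions 58, 59 and 61 to 76, the shortest, stood at 23.6, 37.0 and 26.6 CPM in controls and at 2.40, 7.66 and 4.08 CPM with cytokines. Cytokine replicate 4 held 7 of the 8 cytokine reads of positions 58 to 76 and 10 of the 13 of positions 61 to 76. Over all libraries the log2 fold changes of these 2 fragments were -2.87 ± 0.67 and -2.34 ± 0.60 (SE). Without cytokine replicate 4, the ratio of pooled control to cytokine reads, scaled to library size, was 35.5 for positions 58 to 76 (63 reads against 1, exact 95% interval 6.14 to 1424). For positions 61 to 76 it was 12.0 (64 reads against 3, 3.93 to 59.8). Leaving out the library with most of the cytokine reads raises these ratios, and the intervals do not cover the spread between libraries.

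**Figure D2:**
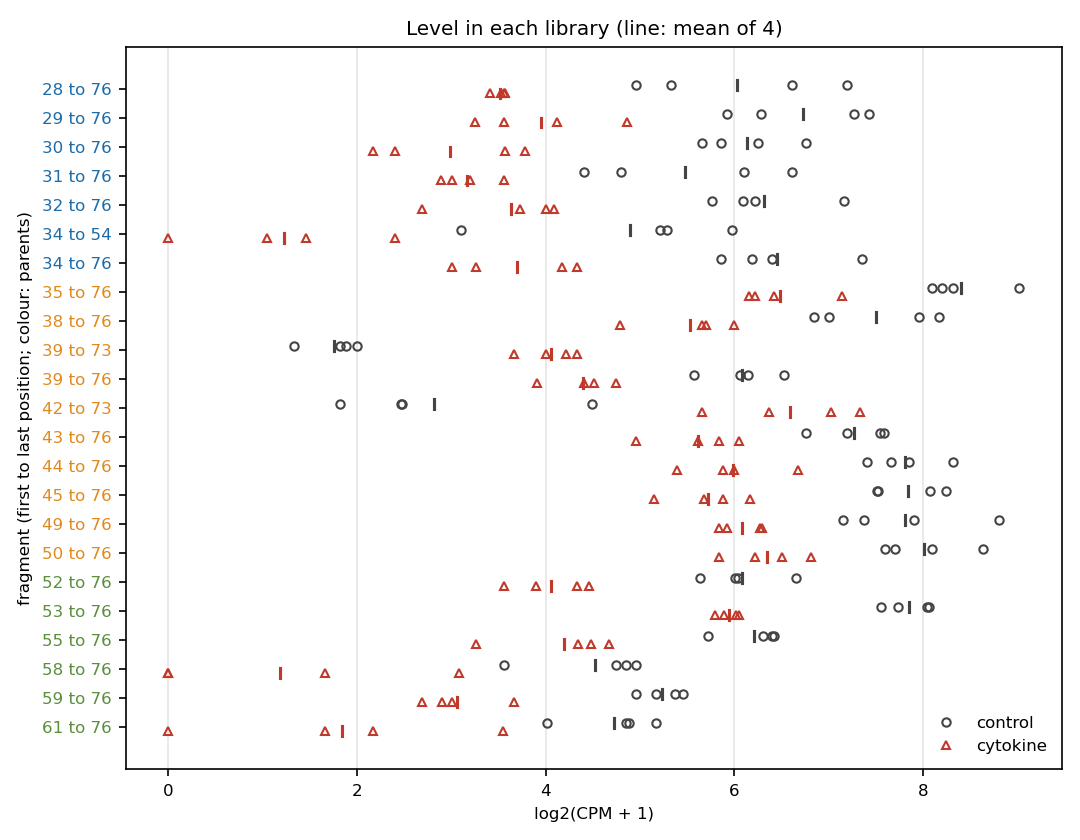
Level of each of the 23 fragments in the 4 control (circles) and 4 cytokine (triangles) libraries on a log2(CPM + 1) scale, with short lines at the group means and labels coloured by parents as in the map of fragments. The triangles lie to the left of the circles for the 21 fragments listed as lower and to the right for positions 39 to 73 and 42 to 73, at the recovered library sizes.

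Both members that were higher with cytokines stopped at position 73, the unpaired base that precedes the tail, and belonged to the sequence that Arg-TCG-2 has in common with Arg-CCG-1. Positions 42 to 73 stood at 4.50, 2.53, 21.5 and 4.55 CPM in control replicates 1 to 4 and at 81.6, 49.5, 159.5 and 129 CPM in cytokine replicates 1 to 4. All cytokine libraries were above all controls, and control replicate 3 was far above the other controls. The log2 fold change was 3.86 ± 0.58 (SE), and 4.73 without control replicate 3. With cytokines its mean, 105 ± 48.9 CPM (SD, n = 4), was the highest of the 23 members, but it exceeded the next, positions 35 to 76, in only 1 of 4 libraries, cytokine replicate 3. In controls its mean ranked 22 of 23.

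The second, positions 39 to 73, was rare. Control replicates 1 to 4 held 2, 2, 1 and 1 reads of it, and the cytokine replicates held 7, 7, 10 and 11. On the CPM scale that is 3.00, 2.53, 2.69 and 1.52 in the controls, all below the level of 3 reads, and 19.05, 15.1, 17.5 and 11.7 with cytokines. Its log2 fold change was 2.58 ± 0.60 (SE).

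Positions 39 to 76 begin at the same base and differ from positions 39 to 73 by the CCA tail alone. This longer fragment went the other way, with 46.5, 65.7, 91.3 and 69.7 CPM in the controls and 21.8, 25.8, 14.0 and 20.2 CPM with cytokines. Its log2 fold change of -1.73 ± 0.44 (SE) became 0.027 under TMM and 0.26 under DESeq2 scaling over the listed tRFs. The share of reads that stopped at 73, among reads of both fragments in a library, does not depend on any scaling. It was 6.06%, 3.70%, 2.86% and 2.13% in control replicates 1 to 4, the highest with an exact (Clopper-Pearson) 95% interval of 0.743% to 20.2%. In cytokine replicates 1 to 4 it was 46.7%, 36.8%, 55.6% and 36.7%, the lowest with an interval of 19.9% to 56.1%. Group means were 3.69% ± 1.71 and 43.9% ± 9.05 (SD, n = 4 per group). The 2 fragments were listed in opposite directions, so a difference in this share was fixed by their choice.

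No fragment of positions 42 to 76 is among the members, and the nearest listed start with the tail is position 43. Reads of positions 42 to 73 per read of positions 43 to 76 numbered 0.0235 to 0.116 in the controls and 1.25 to 2.84 with cytokines. These 2 fragments were also listed in opposite directions, so the gap between the groups in this ratio was fixed by their choice.

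The internal fragment of positions 34 to 54 began with the anticodon, ended at the T loop base of position 54, and belonged to Arg-CCG-1 alone. Its last base directly precedes the first base of positions 55 to 76. It stood at 36.02, 7.58, 61.8 and 37.9 CPM in control replicates 1 to 4 and at 0, 4.30, 1.75 and 1.06 CPM in cytokine replicates 1 to 4, where it rested on 4 reads in all. Each cytokine library was under the level of 3 reads, and control replicate 2 was nearest to them. The log2 fold change was -4.17 ± 0.75 (SE), and -2.43 and -2.24 with TMM and DESeq2 factors over the listed tRFs. Without cytokine replicate 2, which held 2 of the 4 reads, the pooled ratio of control to cytokine was 29.4 (78 reads against 2, exact 95% interval 7.87 to 247). Leaving out that library raises the ratio, and the interval does not cover the spread between libraries. Relative to positions 34 to 76, which share its start and also were lower, it took 27.4% ± 15.8 of the reads of both in controls and 14.8% ± 14.9 with cytokines (SD, n = 4 per group). These shares overlapped, and the 5 to 17 cytokine reads behind each of them set little limit.

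Among the 20 fragments ending in the tail, the share of reads from fragments of Arg-CCG-1 alone was 17.2%, 13.5%, 16.5% and 24.3% in control replicates 1 to 4. In cytokine replicates 1 to 4 it was 9.09%, 11.7%, 10.6% and 10.3%. The 2 ranges did not meet, but all 20 fragments were listed as lower on this contrast, so the difference in shares was not tested. The sequence shared with Arg-TCG-2 took 64.1% ± 3.16 in controls and 72.8% ± 2.52 with cytokines, again without overlap, and the sequence shared by all 3 parents took 18.0% ± 5.74 and 16.8% ± 1.79 (SD, n = 4 per group), with overlap. Parents and start positions cannot be told apart in these shares, because the fragments of Arg-CCG-1 alone are also those that begin at or before the anticodon.

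**Figure D3:**
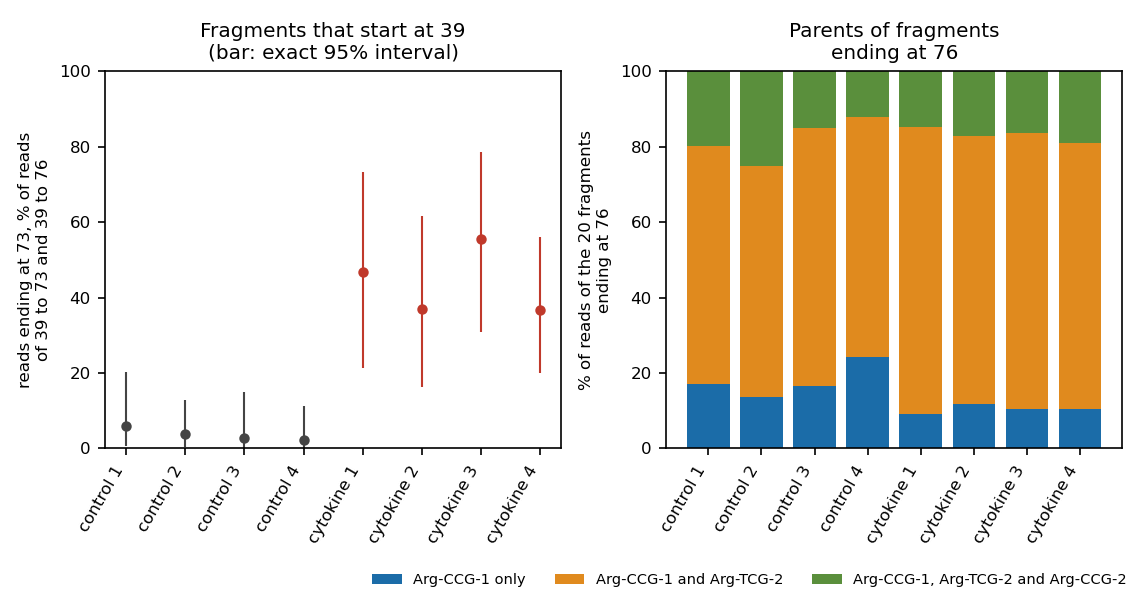
Left, reads ending at 73 as a percent of the reads of positions 39 to 73 and 39 to 76 in each library, with exact 95% intervals: 2.13% to 6.06% in controls and 36.7% to 55.6% with cytokines. Right, percent of reads of the 20 fragments ending at position 76 by parents, where the lowest segment, Arg-CCG-1 alone, took 13.5% to 24.3% in controls and 9.09% to 11.7% with cytokines.

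Arg-CCG-2 offers a comparison at matched positions, since its listed fragments are assigned to it alone through the base at position 50. At the 5 tail-ending starts where both Arg-CCG-1 and Arg-CCG-2 are sole parents (28, 29, 30, 32 and 34), summed reads of Arg-CCG-1 per read of Arg-CCG-2 were 1.17, 0.828, 1.03 and 1.00 in the controls and 0.958, 0.639, 0.700 and 1.02 with cytokines. Levels of these 2 tRNA sequences were not found to differ over those starts (mean log2 ratio -0.15 ± 0.30 SD, higher in 4 of 8 libraries, adjusted p = 0.227, exact two-sided permutation test swapping the sequences within libraries). Only starts listed for both sequences entered, and read level may affect listing, so this says little about the 2 tRNAs as a whole. At the 8 shared starts from 35 to 50, reads of the sequence common to Arg-CCG-1 and Arg-TCG-2 outnumbered those of Arg-CCG-2 in 8 of 8 libraries (mean log2 ratio 1.81 ± 0.50 SD, adjusted p = 0.0156, same exact permutation test). Its unadjusted p, 0.00781, is the smallest that 8 libraries can give, and the p-values were adjusted over these 2 comparisons. Here 2 genes are set against 1, so equal levels per gene would already give more reads of the common sequence. The test therefore says nothing about levels per gene. In this comparison too only starts listed for both sequences entered, and both comparisons were added after seeing the data.

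In the second comparison the ratio also differed between the groups: 2.89, 1.88, 3.26 and 2.90 in control replicates 1 to 4 and 3.63, 4.86, 4.66 and 5.37 in cytokine replicates 1 to 4. At each of the 8 starts the sequence shared with Arg-TCG-2 had the smaller absolute fold change, with log2 values from -2.13 to -1.66 against -3.10 to -2.29 for Arg-CCG-2. The gap was widest at positions 43 to 76, -1.66 ± 0.40 against -3.10 ± 0.50 (SE), and narrowest at positions 45 to 76, -2.13 ± 0.39 against -2.29 ± 0.50 (SE). With both as sole parents, Arg-CCG-1 had the smaller absolute fold change at 2 of 5 starts. Both sets were listed on this contrast, so these differences of fold changes were not tested. For positions 42 to 73 the 2 log2 fold changes were 3.86 ± 0.58 and 3.92 ± 0.66 (SE), within their errors of each other, and for positions 34 to 54 they were -4.17 ± 0.75 and -3.42 ± 0.53 (SE).

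**Figure D4:**
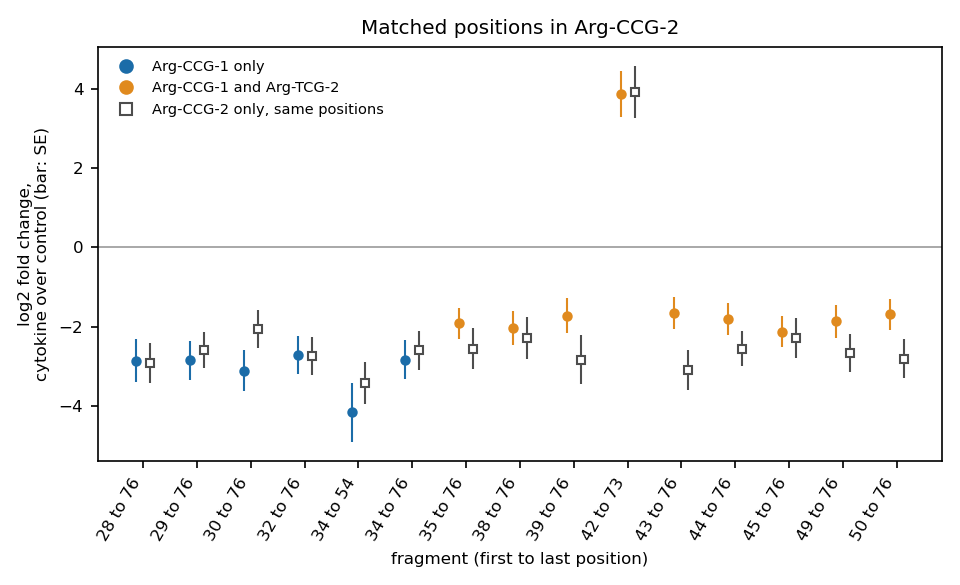
Log2 fold change of cytokine over control (edgeR, bar: SE) for the 15 members that have a listed Arg-CCG-2 fragment at the same positions, with the member as a filled circle and Arg-CCG-2 as an open square. Squares lie below the orange circles at all 8 shared starts that end at 76, by 0.16 to 1.44, while both symbols for positions 42 to 73 sit near 3.9; with DESeq2 factors over the listed tRFs all orange circles ending at 76 but the one at 45 would lie above 0.

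Ordered by mean control level, the members ran from positions 35 to 76 (349.9 CPM), 50 to 76 (267 CPM) and 49 to 76 (247 CPM) down to positions 39 to 73 (2.43 CPM). Neighbours in this order were rarely separated: only 1 of the 22 neighbouring pairs kept its order in all 4 control libraries, positions 43 to 76 (157 CPM) over positions 29 to 76 (115 CPM). With cytokines 3 of the 22 did. Over the 21 members listed as lower the order was much the same in both groups (Spearman's rho 0.91 between group means of fragments that share libraries and overlap in sequence). The coefficient of variation between libraries ran from 15.6% to 107% over the members in controls (median 35.04%) and from 5.64% to 146% with cytokines (median 35.3%). The lowest, 5.64%, was that of positions 28 to 76 and rested on few reads.

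Among listed tRFs without an Arg-CCG-1 parent, the pattern over the 8 libraries most like that of positions 42 to 73 was that of Arg-CCG-2 positions 42 to 73 (Pearson's r 0.96 of log2(CPM + 1)). Positions 18 to 52 of Pro-TGG-1 (0.94) and of Pro-TGG-2 (0.93) came next. For positions 35 to 76 the most alike were positions 34 to 53 of 3 Cys-GCA tRNAs (0.98), positions 19 to 54 of Pro-CGG-1 (0.97) and positions 6 to 30 of a sequence found in 3 proline tRNAs (0.97). All of these tRFs were listed for a difference between the same groups, and the correlated values share libraries and scaling.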

How the data were processed

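RNA was extracted with a miRNeasy kit, pretreated with a kit for tRFs and made into libraries with the QIAseq miRNA kit, per the labels' protocols; whether molecular identifiers were collapsed was not stated there. The submitters' processing notes name Bowtie 1 and GRCm38.p6. The deposited tables give raw read counts per fragment sequence. Per the file headers they also hold TPM, which used 1 divisor for all libraries and was not used, and the authors' edgeR and DESeq results: log2 fold changes, p-values and FDR, base means (a normalized signal) and a test score.

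Library sizes were recovered by fitting edgeR's average log CPM to the authors' values (error under 1e-06). Counts of all 112 listed tRFs were fitted with edgeR 4.0.16 (quasi-likelihood, treatment only, no further scaling factor) in R 4.3.3. The resulting log2 fold changes differed from those of the authors by a median of 0.00218. Standard errors came from the fold change and its F statistic (absolute value over root F). The fit was tested on simulated data. Members and lists were chosen with earlier results of these data known. Every library's value is given for members not ending in CCA, the 3 most abundant tail-ending ones of 1 parent and of several, and those sharing a start with another. The comparison of levels with Arg-CCG-2 was added after seeing the data.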

Additional observations from a re-analysis of the deposited data

Results flagged for a closer look

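In control replicate 3, positions 42 to 73 of Arg-CCG-1 and Arg-TCG-2 stood at 21.5 CPM, far from the other 3 controls (2.53 to 4.55 CPM), and the sum of both fragments ending at 73 stood at 24.2 CPM against a control median of 6.78 CPM. These were the 2 of 60 groups of 4 libraries in which 1 library lay that far out, and chance marks about 1 group in 20. The second value contains the first.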

How the results depend on the processing

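When TMM or DESeq2 factors were taken from the listed tRFs, which by construction centres those tRFs near 0, the log2 fold changes of all listed tRFs shifted by a median of 1.73 and 1.95, against 0.62 with listed reads as library sizes and 0.11 with the authors' DESeq size factors. With TMM factors 20 of 23 members kept the listed direction, and positions 39, 43 and 50 to 76 had values of 0.027, 0.092 and 0.061. With DESeq2 factors 15 kept it, and positions 35, 38, 39, 43, 44, 49, 50 and 53 to 76 had values of 0.068, 0.00055, 0.26, 0.32, 0.16, 0.17, 0.30 and 0.023. The sum of fragments ending in the tail (log2 ratio -2.05) was -0.28, -0.048 and -1.30 with TMM factors, DESeq2 factors and listed reads, and -2.88 over fragments of 1 parent. Fragments ending at 73 (3.50) came to 5.30 and 5.52 with the TMM and DESeq2 factors, and the internal fragment of positions 34 to 54 (-4.33 as the ratio of group means) to -2.32 and -2.11. Groups did not overlap for 5, 4 and 13 of 23 members with TMM factors, DESeq2 factors and listed reads. Neither these counts nor the counts of kept directions were taken over all listed tRFs, so nothing particular to the members can be read from them. The members were chosen for their direction in these same libraries, so directions kept here and in the fits below are no support for them. Leaving out 1 library at a time kept all 23 directions, with log2 ratios of -2.15 to -1.93 for the tail-ending sum, 3.25 to 4.28 for fragments ending at 73 (highest without control replicate 3) and -5.25 to -3.92 for the internal fragment (lowest without cytokine replicate 2). For the comparisons of levels with Arg-CCG-2 they were -0.20 to -0.079 and 1.72 to 1.94. With the replicate number as a block (replicate block) 23 of 23 members kept their direction; correlations of same-numbered libraries were -0.293, 0.172, 0.0953 and 0.0972, so the numbers were not taken as pairs. Only shared fragments end at 73 and only 1 fragment is internal and lower, so those splits by parent and, for the latter, the filter on low counts gave no value.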
